A study of Mus musculus with 12 samples.

Results

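The genes described here are those carried by the mitochondrial genome, taken as every row of the count table whose symbol starts with mt-. There were 16 such rows among 21247 genes: 13 protein-coding genes, 2 ribosomal RNA genes and 1 transfer RNA gene, *mt-Tp*. The annotation used here (GENCODE M21, build GRCm38) lists 37 mitochondrial genes, and the other 21, all transfer RNA genes, were not analysed here. All 16 rows had enough counts to be tested.

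The mitochondrial genome is a small circular DNA that is copied independently of the chromosomes. Its protein-coding genes all encode membrane subunits of the oxidative phosphorylation machinery: complex I, which oxidises NADH, complex III and complex IV, which pass electrons on to oxygen, and the ATP synthase. Every other subunit of these complexes, and every protein that transcribes, processes and translates mitochondrial RNA, comes from nuclear genes. Both strands are transcribed as long precursors, from which mRNAs, rRNAs and tRNAs are cut out, and most mRNAs receive a short poly(A) tail. Mitochondrial transcripts are abundant in cells with a high oxidative demand, muscle fibres among them.

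RNA-seq was performed on periocular skin biopsies of 6-week-old BALB/c mice, with 4 ft/ft and 4 ft/ftMyD88-/- libraries. The ft/ft mice carried a spontaneous loss-of-function point mutation of filaggrin (*Flg*), a protein of the cornified skin layer, with the linked *ma* (matted) mutation removed. The ft/ftMyD88-/- mice carried the same filaggrin mutation and also lacked MyD88, the adaptor through which the IL-1 receptor family and most Toll-like receptors signal, in all cells. Both groups were therefore filaggrin deficient, and the comparison is between filaggrin-deficient skin labelled as with and without MyD88. The study describes spontaneous periocular inflammation and a thicker epidermis in ft/ftMyD88-/- mice, and no inflammation to be seen in ft/ft mice. Inflamed skin is thus compared with uninflamed skin, and a difference below cannot be credited to loss of MyD88 alone. The part of inflammation in the results was not tested. Wild-type libraries were not analysed here. The study names 4 mice per group, and the labels do not tie each library to a mouse, so p-values measure the spread between these libraries.

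Libraries held 15802957 to 29255129 counts. The study describes the mice as female, but *Xist*, which marks cells with an inactive X chromosome, averaged 0.0107 CPM in ft/ft and 49.4 CPM in ft/ftMyD88-/-, and the Y-linked *Ddx3y* averaged 65.0 and 0.147 CPM. All 4 libraries of each group showed this pattern, so sex and genotype cannot be told apart below. *Myd88* read 30.7 ± 4.74 CPM in ft/ft and 41.2 ± 7.29 CPM in ft/ftMyD88-/- (log2 fold change 0.42, SE 0.142, adjusted p = 0.0484), which goes against the label if the whole gene was lost. The sources used here do not say which exons the allele lacks, so ft/ftMyD88-/- below means the libraries so labelled. *Tmem79*, the gene that the matted mutation disrupts, read 59.2 CPM in ft/ft and 16.4 CPM in ft/ftMyD88-/- (log2 fold change -1.85, SE 0.103, adjusted p = 5.08e-07). Keratinocyte markers were plentiful, with 28747 to 36638 summed CPM over 9 genes in ft/ft and 21085 to 24855 in ft/ftMyD88-/-, and muscle markers were present in every library.

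Levels are given in CPM, counts divided by library size and set to a common total, with libraries scaled by the trimmed mean of M values (TMM). Divided by gene length, the members spanned more than 3 orders of magnitude. *mt-Co1*, the catalytic subunit of complex IV, was highest at 5917 ± 792 CPM per kb (mean ± SD, n = 4) in ft/ft. *mt-Cytb*, *mt-Nd1* and *mt-Nd2* followed at 3697 ± 710.1, 3130.4 ± 609 and 1631 ± 410.0 CPM per kb. The next members were *mt-Rnr2* at 1074 ± 275, *mt-Nd5* at 1036 ± 139, *mt-Nd4* at 848 ± 124, *mt-Rnr1* at 549.6 ± 105, *mt-Nd6* at 527 ± 109.9 and *mt-Tp* at 451 ± 112 CPM per kb. The remaining 6 were lower than all of these. They were *mt-Co3* at 88.8 ± 21.9, *mt-Atp6* at 70.6 ± 18.2, *mt-Co2* at 52.6 ± 12.7, *mt-Nd3* at 13.7 ± 4.54, *mt-Nd4l* at 2.30 ± 0.646 and *mt-Atp8* at 1.25 ± 0.670 CPM per kb. In ft/ft, adjacent members of this order did not overlap at *mt-Co1* over *mt-Cytb*, *mt-Nd1* over *mt-Nd2*, *mt-Nd4* over *mt-Rnr1*, *mt-Tp* over *mt-Co3*, *mt-Co2* over *mt-Nd3* and *mt-Nd3* over *mt-Nd4l*, while every other adjacent pair overlapped across libraries. In ft/ftMyD88-/- the order was the same except that *mt-Rnr2* lay above *mt-Nd2*, and *mt-Rnr1* above *mt-Nd4*, both by ranges that overlapped.

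Of the 6 low members, all but *mt-Atp8* have a sequence that recurs almost whole in the nuclear genome. On the minus strand of GRCm38 chromosome 1, between 24611535 and 24616197, GENCODE M21 annotates 7 unprocessed pseudogenes that copy a stretch of mitochondrial DNA from *mt-Co1* to *mt-Nd4*. By the study's methods the reads were single-end reads of 50 cycles and were counted by default settings. The labels describe another kit and name another program, Cell Ranger, and the window analysis rests on the methods. The counting program in its default setting does not count a read that aligns equally well to several places. Every 50-base window of *mt-Co2* also occurred in another annotated transcript. The share of such windows was 99.9% for *mt-Co3*, 99.5% for *mt-Atp6*, 98.8% for *mt-Nd4l* and 98.0% for *mt-Nd3*. It was 62.2% for *mt-Nd4*, 51.1% for *mt-Co1*, 8.19% for *mt-Nd2*, 7.61% for *mt-Nd5* and 1.04% for *mt-Rnr2*, and 0 for the other 6 members. None of the nuclear copies had a row in the table. The 5 protein-coding genes with at least 90% of windows shared ranged from 2.30 to 88.8 CPM per kb in ft/ft, against 527 to 5917 for the 7 others without *mt-Atp8*. Whether the sharing set these levels was not tested, so the order of levels above mixes genes read over their whole length with genes that share most of it.

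**Figure D1:**
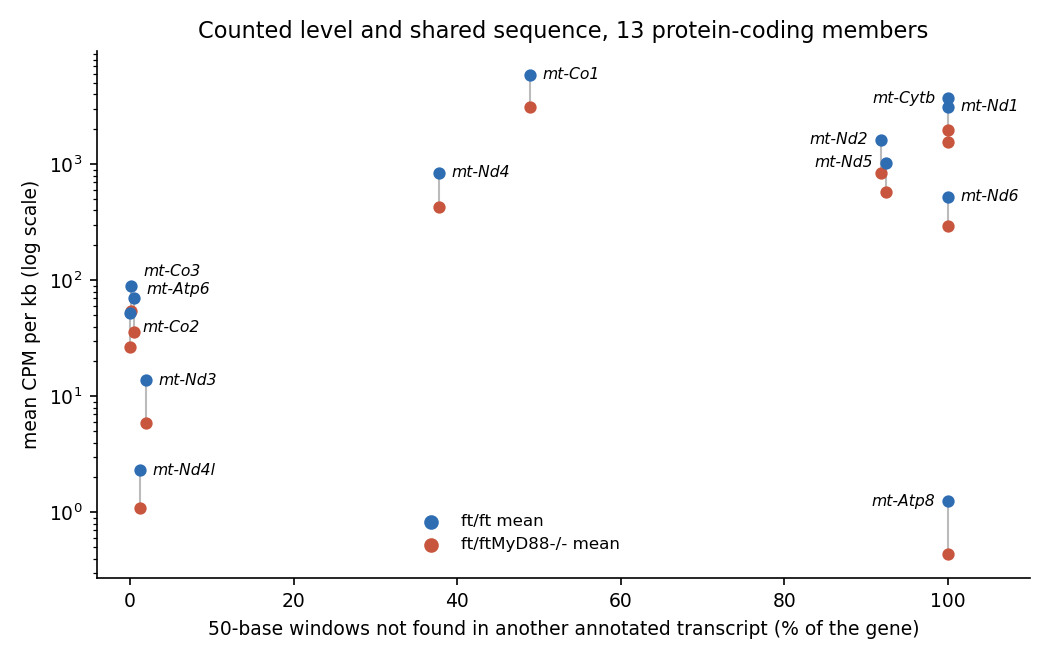
Mean level of each of the 13 protein-coding members in CPM per kb (vertical axis, log scale) against the percentage of its 50-base windows found in no other annotated transcript (horizontal axis), with a point for the mean of the 4 libraries of each group. The 5 genes near 0% lie at 88.8 CPM per kb or below, and *mt-Atp8* is low at 100%.

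The first 90 bases of *mt-Co2* (chrM:7013-7102, plus strand) and of its nuclear copy Gm28661 (chr1:24615476-24615565, minus strand), both from the GENCODE M21 transcripts, are shown because a read from one cannot be told from a read of the other.
mt-Co2: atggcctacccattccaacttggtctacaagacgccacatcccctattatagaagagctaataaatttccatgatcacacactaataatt
Gm28661: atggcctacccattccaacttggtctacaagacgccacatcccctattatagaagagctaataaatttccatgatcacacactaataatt
No difference was found over the 681 bases of this copy. The copies of *mt-Atp6* (Gm10925, 678 bases), *mt-Co3* (Gm28437, 783 bases), *mt-Nd4l* (Gm10222, 294 bases) and the first part of *mt-Nd4* (Gm28439, 876 bases) also had no difference.

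The copy of *mt-Nd3* (Gm28438, 345 bases) had 1 difference, T3C, counted from 1 at the first base of *mt-Nd3*, with the mitochondrial base named first. Both starts are shown (chrM:9459-9518, plus strand, and chr1:24613060-24613119, minus strand) with that base in capitals. Within the 345 bases compared, only a read over it separates the genes.
mt-Nd3: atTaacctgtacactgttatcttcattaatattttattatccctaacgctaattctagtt
Gm28438: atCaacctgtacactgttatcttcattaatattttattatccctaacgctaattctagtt

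In *mt-Co1*, Gm29216 was identical from base 1067 of the gene to the end of the copy. The stretch chrM:6344-6443 (plus strand) is shown around that boundary, with the bases from 1067 on in capitals.
mt-Co1: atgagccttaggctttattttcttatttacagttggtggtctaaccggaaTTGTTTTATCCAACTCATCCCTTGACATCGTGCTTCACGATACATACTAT

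*mt-Atp8*, which encodes a small stator subunit of the ATP synthase, lies between *mt-Co2* and *mt-Atp6* and shares its last 43 bases with the start of *mt-Atp6*, shown in capitals in its sequence (chrM:7766-7969, plus strand). No annotated transcript held a 50-base window of it, and the genome sequence of the 233 bases between Gm10925 and Gm28661, where a copy of it would lie, was not analysed here.
mt-Atp8: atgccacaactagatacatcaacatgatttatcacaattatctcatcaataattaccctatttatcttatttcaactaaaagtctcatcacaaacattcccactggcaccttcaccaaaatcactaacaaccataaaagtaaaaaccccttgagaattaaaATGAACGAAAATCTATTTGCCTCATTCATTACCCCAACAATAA

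Of the 16 mitochondrially encoded genes, 12 fell in ft/ftMyD88-/- and 0 rose (edgeR quasi-likelihood test, Benjamini-Hochberg adjusted p under 0.05 over 20454 genes). Those that fell were 11 of the 13 mRNAs and *mt-Tp*, and they were 1.59-fold (*mt-Tp*) to 2.28-fold (*mt-Nd3*) lower by the fit. The 2 rRNAs, *mt-Rnr1* and *mt-Rnr2*, did not pass the test, with log2 fold changes of -0.13 and -0.15. Across all genes tested, 12.3% were called lower and 10.9% higher (23.3% in either direction). The median log2 fold change was -0.96 over the 13 mRNAs and 0.01 over all genes tested. At an unadjusted p under 0.05, 14 members were lower and 0 higher, and DESeq2 and limma voom each called 12 lower. In TMM-scaled CPM, the 4 ft/ftMyD88-/- libraries lay below the 4 ft/ft libraries without overlap in 11 members, all of them mRNAs. Of all genes tested, 14.2% did so (26.7% in either direction). This separation depended on the scaling. As an unscaled share of all counts, *mt-Cytb* overlapped, with 0.337% in ft/ftMyD88-/- replicate 3 and 0.332% in ft/ft replicate 2. With library totals in place of TMM, 9 members were lower and 0 higher, while over all genes the calls moved from 2525 lower and 2239 higher to 1326 lower and 4638 higher.

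**Figure D2:**
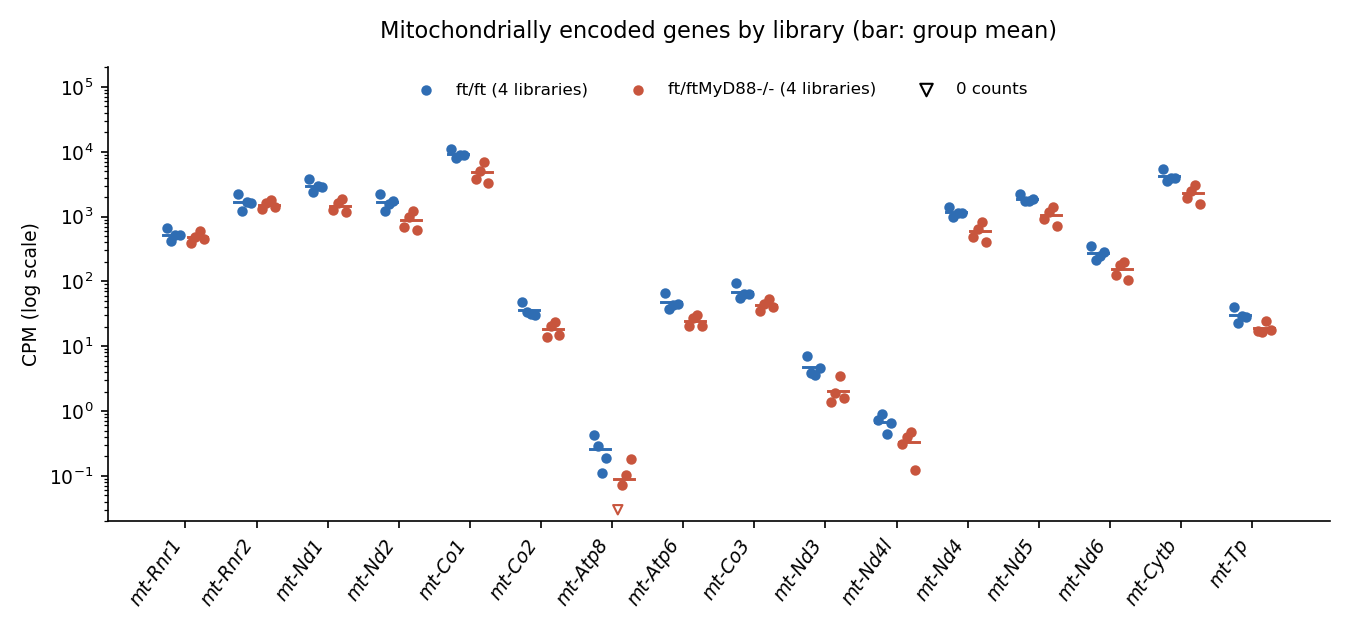
Level of each member in CPM (vertical axis, log scale) in each of the 4 ft/ft and 4 ft/ftMyD88-/- libraries, in the order of the genes on the mitochondrial genome. Each point is a library and each bar a group mean, and the open triangle marks a library with 0 counts of *mt-Atp8*. In these TMM-scaled values the groups separate in 11 mRNAs and overlap in *mt-Rnr1* and *mt-Rnr2*.

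**Figure D3:**
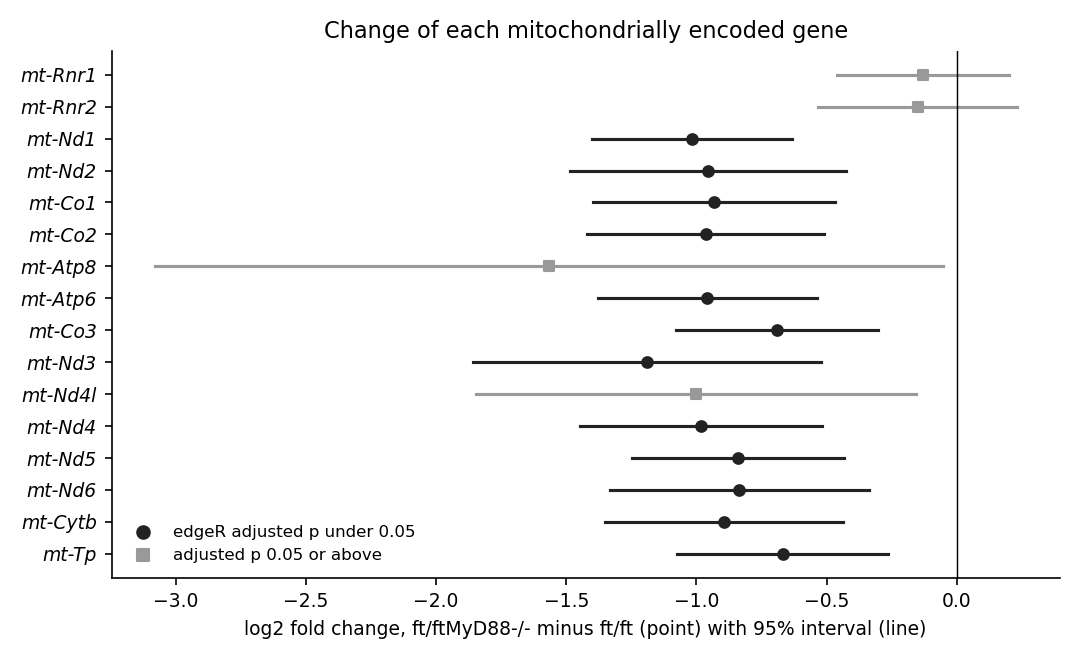
Log2 fold change of each member, ft/ftMyD88-/- minus ft/ft, with its 95% confidence interval from the edgeR fit. Filled circles mark adjusted p under 0.05, which 12 members reached, and the intervals of both rRNAs include 0.

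Complex I takes 7 members, of which 6 fell. *mt-Nd1*, the subunit next to the quinone-binding site, read 3768, 2356, 2983 and 2877 CPM in ft/ft replicates 1 to 4 and 1254, 1615, 1891 and 1166 CPM in ft/ftMyD88-/- replicates 1 to 4. The lowest ft/ft library lay above the highest ft/ftMyD88-/- library, and the gene was 2.02-fold lower by the edgeR fit (log2 fold change -1.02, SE 0.176, adjusted p = 0.00201). *mt-Nd2*, *mt-Nd4* and *mt-Nd5* encode the antiporter-like subunits that form the proton-pumping membrane arm. For *mt-Nd5* the libraries read 2256, 1717, 1719 and 1863 CPM in ft/ft and 919, 1164, 1416 and 721 CPM in ft/ftMyD88-/-. For *mt-Nd4* they read 1404, 998, 1151 and 1119.9 and 487, 642, 836 and 399 CPM. For *mt-Nd2* they read 2251, 1224, 1584 and 1711 and 685, 970.3, 1209 and 628 CPM. All 3 separated the groups in TMM-scaled CPM, *mt-Nd2* by the narrowest margin, between ft/ft replicate 2 and ft/ftMyD88-/- replicate 3. The changes were -0.84 (SE 0.187, adjusted p = 0.00824) for *mt-Nd5*, -0.98 (SE 0.210, adjusted p = 0.00805) for *mt-Nd4* and -0.95 (SE 0.237, adjusted p = 0.0176) for *mt-Nd2*, as log2 fold changes in edgeR.

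*mt-Nd3*, *mt-Nd4l* and *mt-Nd6* encode small membrane subunits that join the quinone site to the pumping arm. *mt-Nd3* rested on few counts, 165, 106, 65 and 119 in ft/ft and 31, 51, 101 and 26 in ft/ftMyD88-/-, and fell from 4.78 ± 1.58 to 2.06 ± 0.939 CPM (SD, n = 4 each; edgeR log2 fold change -1.19, SE 0.306, adjusted p = 0.0162). The counts of *mt-Nd4l* were 17, 25, 8 and 17 for ft/ft and 7, 11, 14 and 2 for ft/ftMyD88-/-. Its groups overlapped and it did not pass the test (log2 fold change -1.0, SE 0.389, adjusted p = 0.0820 in edgeR), although its estimated change was close to that of *mt-Nd1*. *mt-Nd6* read 348, 214, 249 and 284 CPM in ft/ft and 126, 181, 201 and 105 CPM in ft/ftMyD88-/-, with ft/ft replicate 2 just above ft/ftMyD88-/- replicate 3 (log2 fold change -0.83, SE 0.221, adjusted p = 0.0242 in edgeR). The calls of *mt-Nd3* and *mt-Nd6* depended on single libraries. Without ft/ftMyD88-/- replicate 4 the adjusted p of *mt-Nd3* was 0.0519. That of *mt-Nd6* was 0.0583 without ft/ft replicate 1, 0.0578 without ft/ft replicate 4 and 0.0626 without ft/ftMyD88-/- replicate 1.

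The single complex III member, *mt-Cytb*, encodes cytochrome b, which holds the haems that carry electrons between the quinone sites. It was the second most counted member, with 5403, 3529.6, 4005 and 3981 CPM in ft/ft and 1945, 2513, 3104 and 1549.7 CPM in ft/ftMyD88-/-. In TMM-scaled CPM no ft/ftMyD88-/- library reached the lowest ft/ft library, whereas the unscaled shares overlapped. The log2 fold change was -0.89 (SE 0.208, 95% confidence interval -1.35 to -0.44, adjusted p = 0.0106 in edgeR). None of its 50-base windows recurred in another annotated transcript.

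All 3 complex IV members fell. *mt-Co1*, which holds the site where oxygen is reduced, read 10874, 7993, 8848 and 8851 CPM in ft/ft and 3790.1, 4961, 7059 and 3354 CPM in ft/ftMyD88-/-. Its group means were 9142 ± 1223 and 4791 ± 1657 CPM (SD, n = 4 each), and ft/ftMyD88-/- replicate 3, at 7059 CPM, was the library nearest to ft/ft (log2 fold change -0.93, SE 0.212, adjusted p = 0.00894 in edgeR). *mt-Co2*, which takes electrons from cytochrome c, read 48.9, 33.5, 31.2 and 30.4 CPM in ft/ft and 14.1, 20.8, 24 and 14.7 CPM in ft/ftMyD88-/-, and its change was -0.96 on the log2 scale (SE 0.205, adjusted p = 0.00781 in edgeR). *mt-Co3*, the core subunit without a metal centre, read 94.6, 55.3, 64.3 and 64.1 and 34.6, 44.2, 53.2 and 40.3 CPM. Its groups were separated only by the gap between 53.2 CPM in ft/ftMyD88-/- replicate 3 and 55.3 CPM in ft/ft replicate 2, and its log2 fold change of -0.69 was the smallest among the mRNAs (SE 0.175, adjusted p = 0.0178 in edgeR, and 0.0569 without ft/ftMyD88-/- replicate 4).

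Of the ATP synthase members, *mt-Atp6*, which forms the proton channel, fell from 48.1 ± 12.4 to 24.7 ± 5.09 CPM (SD, n = 4 each; edgeR log2 fold change -0.96, SE 0.190, adjusted p = 0.00547). Its libraries read 66.2, 38.2, 43.3 and 44.6 CPM in ft/ft and 20.4, 27.0, 30.7 and 20.5 CPM in ft/ftMyD88-/-, again without overlap. *mt-Atp8* was counted 10, 8, 2 and 5 times in ft/ft and 0, 2, 3 and 3 times in ft/ftMyD88-/-, so every ft/ftMyD88-/- library stood at or under the floor of 3 counts. The ratio of the summed counts, ft/ftMyD88-/- over ft/ft and scaled by library size, was 0.317 with an exact 95% interval of 0.123 to 0.724 that covers counting error only, and the gene did not pass the test across libraries (adjusted p = 0.124 in edgeR).

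The fall was seen in mRNAs with much and with little shared sequence. Log2 fold changes ran from -1.19 to -0.69 in the 5 with at least 90% of windows shared and from -1.02 to -0.83 in the 7 others without *mt-Atp8*, of which *mt-Co1* and *mt-Nd4* also share more than 50% of their windows. They were -1.02, -0.89 and -0.83 in *mt-Nd1*, *mt-Cytb* and *mt-Nd6*, which share none. Of the 9 members with at least 90% unshared windows, a set formed after the values were seen, 6 fell: *mt-Nd1*, *mt-Nd2*, *mt-Nd5*, *mt-Nd6*, *mt-Cytb* and *mt-Tp*.

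The rRNAs build the small (*mt-Rnr1*) and large (*mt-Rnr2*) subunits of the mitochondrial ribosome. *mt-Rnr1* read 657, 413, 518 and 512 CPM in ft/ft and 392, 485, 593 and 448 CPM in ft/ftMyD88-/-. *mt-Rnr2* read 2269, 1212, 1680.2 and 1633 CPM in ft/ft and 1299, 1619, 1822 and 1383 CPM in ft/ftMyD88-/-. The groups overlapped over most of their range in both, and ft/ft replicate 1 was the highest and ft/ft replicate 2 among the lowest of the 8 libraries. The log2 fold change was -0.13 (95% confidence interval -0.46 to 0.20, adjusted p = 0.580) for *mt-Rnr1* and -0.15 (-0.53 to 0.23, adjusted p = 0.577) for *mt-Rnr2*, both in edgeR. These intervals leave out a fall of the size fitted for *mt-Co3*, the least changed mRNA. The direction of the rRNA estimates depended on the scaling, with 0.05 for *mt-Rnr1* and 0.03 for *mt-Rnr2* when library totals replaced TMM. The ratio of *mt-Rnr2* to *mt-Rnr1* was the same on average in both groups, 1.68 on the log2 scale. Libraries were selected for poly(A) tails according to the study's methods, and rRNA enters such a library through short tails or internal A runs, so these counts need not measure the rRNA pool.

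*mt-Tp* encodes the tRNA for proline and is, with *mt-Nd6*, 1 of the 2 members read from the minus strand. It is shown because it was the only transfer RNA gene with a row (chrM:15356-15422, minus strand), with a length of 67 bases.
mt-Tp: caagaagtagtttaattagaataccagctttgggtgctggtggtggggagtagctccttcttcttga
*mt-Tp* read 40.6, 22.8, 29.6 and 27.9 CPM in ft/ft and 17, 16.4, 24.9 and 17.7 CPM in ft/ftMyD88-/-. ft/ftMyD88-/- replicate 3 lay within the ft/ft range and the other 3 below it, and the gene passed the test (log2 fold change -0.67, SE 0.184, adjusted p = 0.0233 in edgeR). The call was lost without any one of ft/ftMyD88-/- replicate 1 (adjusted p = 0.0591), 2 (0.0542) or 4 (0.0700). Reads of a mature tRNA and of an unprocessed precursor spanning the gene are not distinguished by these counts.

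Members annotated on both strands fell. *mt-Nd6* and *mt-Cytb* are neighbours on opposite strands, and their first 60 bases are shown with G in capitals (*mt-Nd6*, chrM:14011-14070, minus strand; *mt-Cytb*, chrM:14145-14204, plus strand), since the strands differ in base composition.
mt-Nd6: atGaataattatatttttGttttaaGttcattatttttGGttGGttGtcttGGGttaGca
mt-Cytb: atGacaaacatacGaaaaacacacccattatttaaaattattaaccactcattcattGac
G made up 28.1% of *mt-Nd6* and 5.88% to 16.1% of the 12 plus-strand mRNAs. The log2 ratio of *mt-Nd6* to the 6 other complex I members was -4.83 ± 0.0761 in ft/ft and -4.72 ± 0.0785 in ft/ftMyD88-/- (SD, n = 4 each), with overlap between the groups. Counting by the default setting uses strand, but the kit that the study names does not mark it, so counts of *mt-Nd6* and *mt-Tp* can hold reads from the opposite strand. *mt-Nd5* and *mt-Nd6* overlap by 14 bases.

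As a share of all counts in a library, without any scaling between libraries, the 16 members took 2.72%, 1.86%, 2.17% and 2.20% in ft/ft and 1.16%, 1.53%, 1.99% and 1.02% in ft/ftMyD88-/-. The 95% Wilson intervals of these shares were at most 0.0131 percentage points wide and cover counting error only. The means were 2.24% ± 0.355 and 1.42% ± 0.431 (SD, n = 4 each), with ft/ftMyD88-/- replicate 3 above ft/ft replicate 2. The 13 mRNAs together took 2.02% ± 0.307 and 1.21% ± 0.394, and the 2 rRNAs 0.209% ± 0.0479 and 0.214% ± 0.0379. Thus the mRNA share was lower in ft/ftMyD88-/- on average and the rRNA share was not. By complex, the mean share went from 0.754% to 0.444% for complex I, from 0.397% to 0.243% for complex III, from 0.869% to 0.518% for complex IV and from 0.00454% to 0.00264% for the ATP synthase members. The groups did not overlap for complex I and the ATP synthase members and overlapped for complexes III and IV. The complex IV sum was mostly *mt-Co1*, with 253683 counts in ft/ft replicate 1 against 1141 of *mt-Co2* and 2206 of *mt-Co3*. The ATP synthase sum was mostly *mt-Atp6*, of which 99.5% of windows are shared. In skin biopsies, fewer cells of a type rich in mitochondria and less mitochondrial RNA per cell cannot be told apart.

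The log2 ratio of summed mRNA to summed rRNA counts was 3.18, 3.48, 3.23 and 3.28 in ft/ft and 2.46, 2.53, 2.71 and 2.13 in ft/ftMyD88-/-. The groups did not overlap, and the means differed by -0.84. The log2 ratio of the 13 mitochondrially encoded mRNAs to 72 nuclear-encoded subunits of the same 4 complexes was 1.04, 0.72, 0.84 and 0.82 in ft/ft and -0.12, 0.13, 0.51 and -0.71 in ft/ftMyD88-/-. This ratio, which no scaling between libraries can alter, also separated the groups, with a difference of means of -0.90. By complex the difference was -0.83 for complex I, -0.90 for complex III, -1.03 for complex IV and -0.88 for the ATP synthase. The mitochondrial sums of complex IV and the ATP synthase are mostly *mt-Co1* and *mt-Atp6*, so these values need not hold for the other subunits. The spread between libraries was wider in ft/ftMyD88-/-, where the ratio of all 4 complexes had an SD of 0.515 against 0.132 in ft/ft. These ratios are given as descriptions, with no test.

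**Figure D4:**
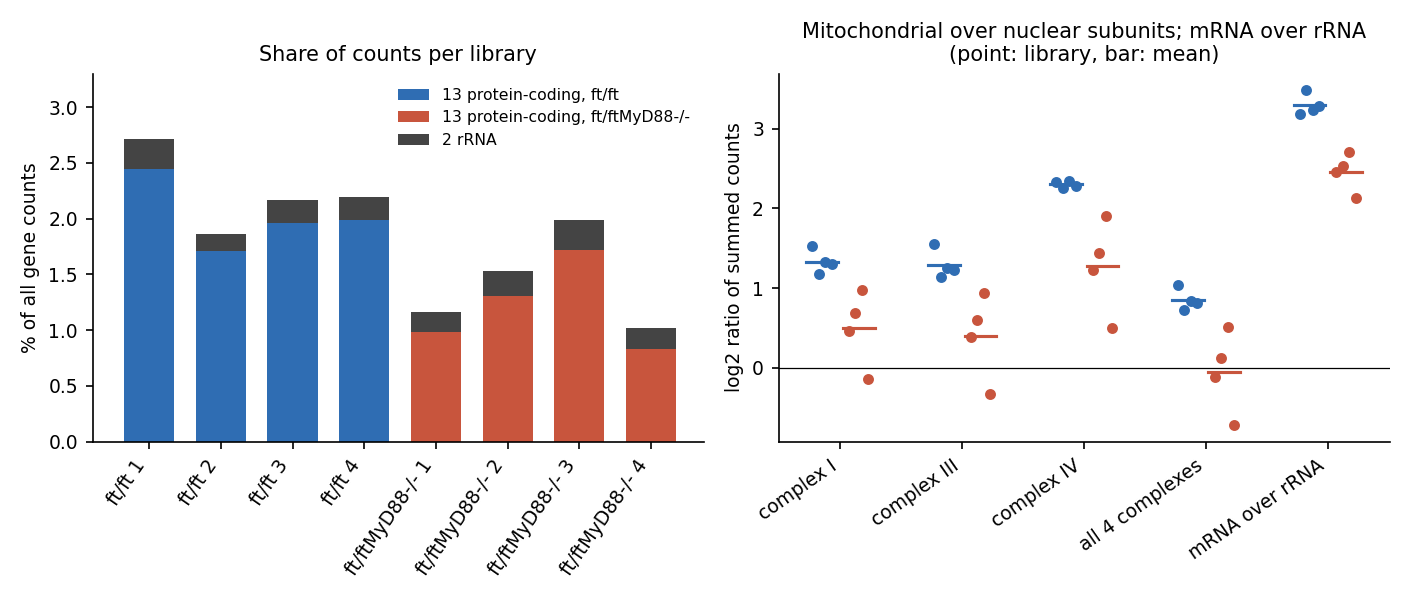
Left, percentage of all gene counts taken by the 13 mitochondrially encoded mRNAs and the 2 rRNAs in each library. Right, log2 ratio of summed mitochondrial to summed nuclear-encoded subunit counts by complex, and of mRNA to rRNA counts, with a point per library and a bar for the mean of 4. The ATP synthase, at -8.04 to -6.34, is not drawn, and the groups do not overlap in any ratio drawn.

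When each library was scaled to its own mitochondrial total, 2 members, *mt-Rnr1* and *mt-Rnr2*, rose and 0 fell, also at an unadjusted p under 0.05. That total is mostly mRNA, with mean shares of all counts of 2.02% of 2.24% in ft/ft and 1.21% of 1.42% in ft/ftMyD88-/-. This scaling therefore holds the mRNAs near 0, and the rise of the rRNAs restates the mRNA to rRNA ratio above. *mt-Rnr1* went from 2.20% ± 0.0767 to 3.69% ± 0.588 of the mitochondrial counts and *mt-Rnr2* from 7.06% ± 0.675 to 11.8% ± 1.69 (SD, n = 4 each), with every ft/ftMyD88-/- library above every ft/ft library. The log2 fold changes in this scaling were 0.75 (SE 0.281, adjusted p = 0.0157) and 0.74 (SE 0.285, adjusted p = 0.0182) in edgeR. On this scale the median log2 fold change of all genes tested was 0.88 and 61.8% of them were called higher and 0.782% lower (62.5% in either direction), so both rRNAs lay slightly under that median. Both calls were lost without ft/ft replicate 4 (adjusted p = 0.0508 for *mt-Rnr1* and 0.0568 for *mt-Rnr2*), and that of *mt-Rnr2* without ft/ft replicate 2 (0.0594). None of the 13 mRNAs passed the test on this scale, in which the spread was estimated with all genes tested. For *mt-Nd1* the log2 fold change was -0.16 with an SE of 0.284 (adjusted p = 0.624 in edgeR). Its shares did not overlap between the groups, so a missed test here does not show an unchanged share. *mt-Co1* took 38.6% ± 1.42 of the mitochondrial counts in ft/ft and 35.5% ± 2.12 in ft/ftMyD88-/-, and *mt-Cytb* took 17.7% and 17%. *mt-Nd1*, from 12.5% to 11.2%, and *mt-Nd4*, from 4.92% to 4.39%, took a smaller share in every ft/ftMyD88-/- library than in any ft/ft library.

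The libraries of a group were ordered alike across members. ft/ft replicate 1 was the highest ft/ft library in 15 of 16 members and ft/ft replicate 2 the lowest in 12. ft/ftMyD88-/- replicate 3 was the highest ft/ftMyD88-/- library in 15 of 16, and replicate 4 the lowest in 8. The members are thus not independent measurements of the genotype. Leaving out both ft/ft replicate 1 and ft/ftMyD88-/- replicate 3, a choice made after seeing the data, kept the count at 12 lower.

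Nuclear-encoded subunits of the same complexes moved less. Of 36 complex I subunits tested, 7 fell and 0 rose, with a median log2 fold change of -0.07. The largest falls were those of *Ndufa13* (log2 fold change -0.46, SE 0.100, adjusted p = 0.00665) and *Ndufb11* (log2 fold change -0.37). With 1 library left out, 4 to 9 fell, and 4 without ft/ft replicate 1, ft/ft replicate 4 or ft/ftMyD88-/- replicate 1. Of 9 complex III subunits, only *Uqcrc1*, a core subunit, fell (log2 fold change -0.26, SE 0.0784, adjusted p = 0.0307), a call lost in 6 of 8 fits that left out 1 library, and the median was 0.02. Of the 11 ubiquitous complex IV subunits 0 passed the test, also without adjustment and by DESeq2, and their median was 0.01. Of 16 ATP synthase subunits 2 fell, *Atp5g1* (-0.40), of the proton-carrying ring, and *Atp5a1* (-0.33), of the catalytic head, with a median of -0.02. These falls were lost under another scaling. With library totals in place of TMM, complexes I, III and IV and the ATP synthase had 0 nuclear subunits lower and 1, 1, 2 and 1 higher. That scaling called 4638 of all 20454 genes tested higher and 1326 lower. Complex II has no mitochondrially encoded subunit, and 2 of its 4 genes fell, *Sdha* (log2 fold change -0.51, SE 0.0869, adjusted p = 0.00172) and *Sdhc* (-0.46). All p-values here are from the same edgeR fit, in which 12.3% of genes were called lower.

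The muscle-type subunits of complex IV moved as much as the members. All 3 fell, *Cox6a2* (log2 fold change -1.11, SE 0.190, adjusted p = 0.00267), *Cox7a1* (log2 fold change -0.99, SE 0.266, adjusted p = 0.0249) and *Cox8b* (log2 fold change -0.89, SE 0.243, adjusted p = 0.0294), in edgeR. Their median of -0.99 lay near the -0.96 of the mitochondrially encoded mRNAs. The calls of *Cox7a1* and *Cox8b* depended on single libraries. Both were lost without ft/ft replicate 1 (adjusted p = 0.0665 and 0.0766), ft/ft replicate 4 (0.0617 and 0.0704) and ft/ftMyD88-/- replicate 4 (0.0602 and 0.0682), so that 1 of the 3 was called, and that of *Cox8b* also without ft/ft replicate 3 (0.0613), without ft/ftMyD88-/- replicate 2 (0.0621) and with library totals (0.0584), all in edgeR. Both genes are also known from brown fat.

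Skeletal muscle markers moved with the members. Of 20 contractile and metabolic genes of muscle fibres, all with counts, 17 fell and 0 rose (0 also at an unadjusted p under 0.05 and by DESeq2), and the median log2 fold change was -1.06. *Tnnc2*, which was not called, stood at or under the floor of 3 counts in every library. Scaled by library totals, 14 fell, where 1326 of all 20454 genes tested were called lower and 4638 higher. The 4 largest falls that passed the test were *Tnnt1* (-2.03), *Myh2* (-1.72), *Casq1* (-1.44) and *Actn3* (-1.35). The 20 genes summed to 13588, 13158, 14801 and 17775 CPM in ft/ft and 5026, 7589, 9536 and 6915 CPM in ft/ftMyD88-/-, and the groups did not overlap. ft/ftMyD88-/- replicate 3 had the highest muscle sum of its group and the highest level of 15 of 16 members, whereas ft/ft replicate 1, highest in 15 members, had neither the highest nor the lowest muscle sum of its group. The part of muscle tissue in the fall of the members was not tested.

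Markers of other cell types moved in both directions, in a fit where 12.3% of all genes tested were called lower and 10.9% higher. In keratinocyte markers 5 of 9 fell (median -0.58), in dermal fibroblast markers 3 of 6 (median -0.75) and in sebocyte markers 7 of 12 (median -0.34) with 0 rising in each. Of 6 brown adipocyte markers 3 fell (median -0.66), of which *Cox7a1* and *Cox8b* are the muscle isoforms counted above, and *Elovl3* and *Dio2* read 0.18 and 0.73 as log2 fold changes, neither past the threshold. With library totals that list had 1 gene higher and 1 lower, where 4638 of all 20454 genes tested were called higher and 1326 lower. The fibroblast sums were 14019 to 29056 CPM in ft/ft and 6962 to 10330 CPM in ft/ftMyD88-/-. T cell markers rose in 7 of 8, with summed levels of 24.3 to 31.8 CPM in ft/ft and 35.5 to 52.6 CPM in ft/ftMyD88-/-. In neutrophil markers 1 of 7 rose (0 to 3 when 1 library was left out), with summed levels of 63.3 to 362 CPM in ft/ft and 434 to 1082 CPM in ft/ftMyD88-/-. Of 8 macrophage markers 1 rose, and of 6 adipocyte markers 0 passed the test. The counts of neutrophil and macrophage markers called higher are near the share over all genes. Of 5 lacrimal and exocrine markers 1 rose and 1 fell. Photoreceptor markers, which would mark retina, summed to 2.73 to 4.67 CPM in ft/ft and 5.44 to 7.87 CPM in ft/ftMyD88-/-. Of the 4 tested, 1 rose and 2 fell, with a median log2 fold change of -1.51. Of the RNAs kept in the nucleus, *Malat1* read 147 and 84.7 CPM (log2 fold change -0.79, SE 0.339, adjusted p = 0.137) and *Neat1* rose (log2 fold change 0.84, SE 0.207, adjusted p = 0.0173, and 0.0545 without ft/ft replicate 1). The part of any of these in the result was not tested.

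Of 10 mitochondrial transcription genes 0 fell and 1 rose, *Mterf1b*, of the transcription termination factor family (log2 fold change 0.76, SE 0.248, adjusted p = 0.0450). This call was lost in 6 of 8 fits that left out 1 library, those without ft/ft replicate 1, 2 or 4 or ft/ftMyD88-/- replicate 1, 3 or 4, with adjusted p from 0.0794 to 0.107 in edgeR, and 1 of 10 is near the 10.9% of all genes called higher. *Polrmt*, the mitochondrial RNA polymerase, had a log2 fold change of 0.29 (adjusted p = 0.0947), *Tfam*, which packages and activates the genome, 0.11 (adjusted p = 0.395), and the elongation factor *Tefm* 0.44 (adjusted p = 0.0661), none past the threshold. At an unadjusted p under 0.05, 0 of the 10 were lower and 5 higher. Of 18 genes of RNA processing and stability 3 rose and 0 fell, with 5 higher and 2 lower at an unadjusted p under 0.05 and 4 higher and 1 lower by DESeq2. They were *Pnpt1* (log2 fold change 0.42, SE 0.110, adjusted p = 0.0170), an exoribonuclease that degrades mitochondrial RNA, *Fastkd2* (0.40, lost without ft/ft replicate 3, ft/ft replicate 4 or ft/ftMyD88-/- replicate 4), which acts on *mt-Rnr2* and the large ribosomal subunit, and *Tbrg4* (0.36), an RNA-binding protein of the same family. Of 76 mitochondrial ribosomal protein genes 17 rose and 0 fell, also 0 at an unadjusted p under 0.05 and by DESeq2, with a median of 0.18, against 10.9% of all genes called higher. The largest rises were those of *Mrpl12* (log2 fold change 0.67, SE 0.138, adjusted p = 0.00471) and *Mrps22* (0.52). The count was 8 without ft/ft replicate 3, 9 without ft/ft replicate 4, 10 without ft/ft replicate 2 or ft/ftMyD88-/- replicate 4, and 13 to 20 without any other library. With library totals in place of TMM, 44 mitochondrial ribosomal protein genes rose, and 0 genes of these 3 lists fell. On that scale 4638 of all 20454 genes tested were called higher and 1326 lower, with a median log2 fold change of 0.19.

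Genes of mitochondrial DNA maintenance, biogenesis and mass gave mixed values. Of 13 genes of mitochondrial DNA maintenance 2 fell, the DNA ligase *Lig3* (-0.43) and the thymidine kinase *Tk2* (-0.30, lost without ft/ft replicate 4 or ft/ftMyD88-/- replicate 2 or 3), and 0 rose. That count is near the 12.3% of all genes called lower in the same fit, in which 10.9% were called higher. Of 7 regulators of biogenesis *Pprc1* rose (log2 fold change 0.49, SE 0.118, adjusted p = 0.0106) and *Esrrg*, a nuclear receptor of oxidative tissues, fell (log2 fold change -1.35, SE 0.210, adjusted p = 0.00103). *Ppargc1a*, the best known coactivator of the pathway, read 0.03 (adjusted p = 0.930). Of 8 genes that follow mitochondrial mass 3 fell, the outer-membrane channels *Vdac1* (log2 fold change -0.57, SE 0.0869, adjusted p = 0.000885) and *Vdac2* (-0.24, lost in each of the 8 fits that left out 1 library) and the citrate synthase gene *Cs* (-0.45), and 0 rose. With library totals in place of TMM, *Lig3*, *Tk2* and *Vdac2* no longer passed, and 3 genes of DNA maintenance and 3 of mitochondrial mass rose. Of all 20454 genes tested, 4638 were called higher and 1326 lower on that scale.

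**Figure D5:**
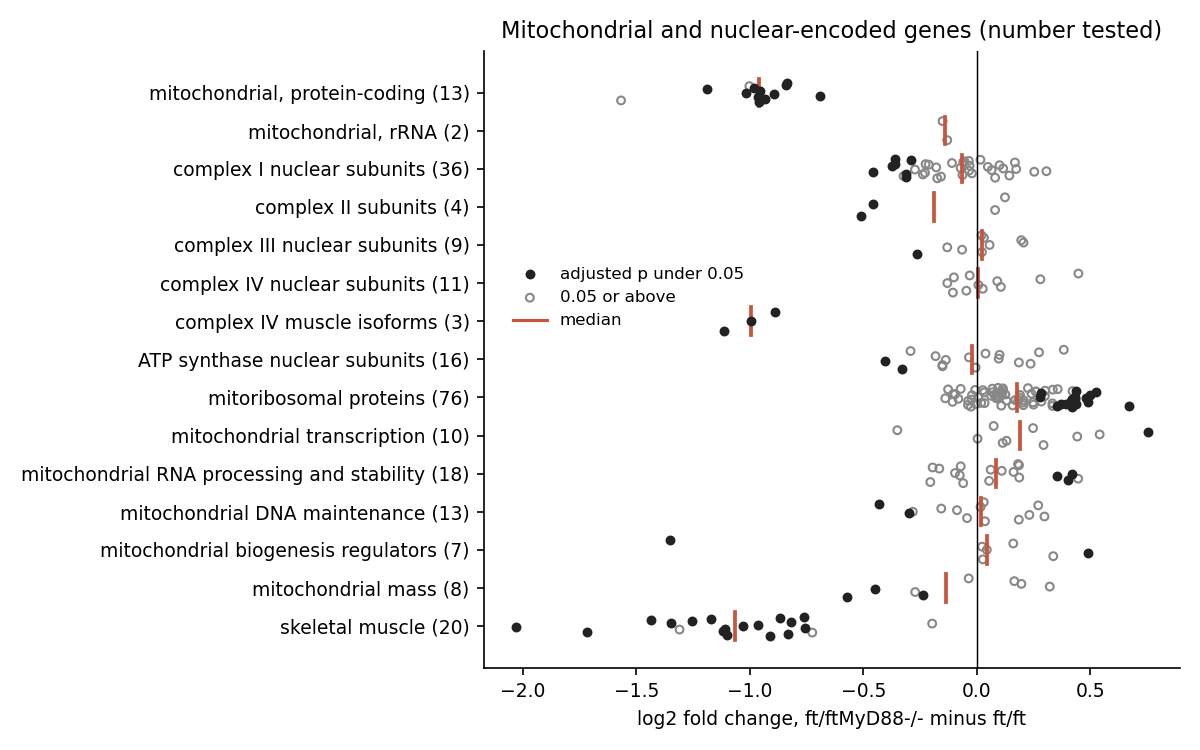
Log2 fold change of each tested gene, ft/ftMyD88-/- minus ft/ft, in the mitochondrially encoded classes and in lists of nuclear genes, with the number tested in brackets. Filled points have an edgeR adjusted p under 0.05 and the vertical bar is the median of each list. The mitochondrially encoded mRNAs (median -0.96), the muscle isoforms of complex IV (-0.99) and the skeletal muscle genes (-1.06) lie furthest to the left.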

How the data were processed

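Total RNA of periocular skin was made into poly(A)-selected, 50-cycle single-end libraries, per the study's methods. The labels of these samples instead describe a fixed-tissue single-cell kit and name Cell Ranger, so the library preparation and the read counting are uncertain. By the methods, the authors aligned reads to GRCm38.p6 (HISAT, TopHat2) and counted them per gene with HTSeq at its default settings. These settings use strand, although the kit named in the methods does not mark it. Tool versions and annotation release are not given in the sources used here. The deposited values are raw counts per gene, used as deposited.

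Here, genes with at least 10 counts summed over 8 libraries (20454) were fitted with edgeR 4.0.16 (R 4.3.3): TMM factors, robust quasi-likelihood test, 4 ft/ft against 4 ft/ftMyD88-/- libraries, Benjamini-Hochberg over all genes, threshold 0.05. A second fit scaled each library to its summed mt- counts. TMM factors were 0.922 to 0.954 in ft/ft and 1.04 to 1.09 in ft/ftMyD88-/-. A floor of 3 counts equals 0.102 to 0.183 CPM. DESeq2 1.42.0, limma voom 3.58.1, other scalings, filters, thresholds, the replicate block and leaving out libraries were tried. In simulated data, 177 of 200 genes changed 2-fold and 14 of 19950 unchanged genes were called. The changed genes were drawn from well-counted genes only, so the rate does not cover counts as low as those of *mt-Nd4l* and *mt-Atp8*. Sequence windows came from GENCODE M21 transcripts. All members are named, and from each nuclear list up to 4 called genes with the largest change, besides any targeted, transcription or biogenesis gene. Members and lists were chosen with earlier results of these data known.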

Additional observations from a re-analysis of the deposited data

Results flagged for a closer look

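Among 64 groups of 4 values tested for a library far from the others, 3 met the criterion, where chance gives about 1 in 20. *mt-Co2* read 48.9 CPM in ft/ft replicate 1, against 33.5 CPM in the next library of its group. *mt-Tp* read 24.9 CPM in ft/ftMyD88-/- replicate 3, against 17.7 CPM in the next. The share of all counts taken by *mt-Tp* was 0.00270% in ft/ftMyD88-/- replicate 3, against 0.00184% in the next library, which is the same gene on another scale. These are the libraries that were highest in 15 of 16 members within their group.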

How the results depend on the processing

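The count of 12 members lower in ft/ftMyD88-/- was also 12 with RLE scaling, TMM without mt- genes, no filter, filterByExpr, DESeq2 and limma voom. It was 9 with library totals, 11 with the replicate block, 9 to 12 when 1 library was left out (9 without ft/ftMyD88-/- replicate 4), 6 at an adjusted p under 0.01 and 2 for log2 fold changes of 1 or more in size, both of which are stricter, and 6 of 9 over members with at least 90% unshared windows, a set chosen after seeing the data. With library totals, the median of all genes was 0.19, *mt-Rnr1* and *mt-Rnr2* reversed to 0.0518 and 0.0320, and *mt-Co3*, *mt-Nd6* and *mt-Tp* missed the threshold (adjusted p = 0.0524, 0.0595 and 0.0691 in edgeR). *mt-Rnr2* ran from -0.28 to 0.0211 when 1 library was left out. Replicate numbers did not pair the libraries: deviations of same-numbered libraries correlated at -0.15, 0.03, 0.01 and -0.02, and 1 of the 4 numbers matched its own best. With the replicate block, *mt-Nd6* had an adjusted p of 0.0743, all genes gave 1895 higher and 2144 lower calls, and mitochondrial ribosomal proteins 11 higher. Of the 2 members higher relative to the mitochondrial total, 0 remained past the threshold with the block (adjusted p = 0.0571 and 0.0591 in edgeR) and 0 to 2 when 1 library was left out. Scaled to the total of the mRNAs alone, *mt-Atp6*, *mt-Cytb* and *mt-Nd5* reversed to 0.0150, 0.0429 and 0.0890, none past the threshold. Scaled to the mitochondrial total, with 1 library left out, *mt-Nd4l* ran from -0.41 to 0.0177, *mt-Nd5* from -0.0429 to 0.0276 and *mt-Nd6* from -0.0494 to 0.0404. The difference in the share of all members was -0.81 percentage points, and -1.0 to -0.65 when 1 library was left out. For the share of the mRNAs without *mt-Co1* it was -0.47. The mitochondrial to nuclear ratio differed by -0.90, and by -1.09 to -0.68 when 1 library was left out. The cause of these changes was not tested. Counts under 30 in every library limit *mt-Nd4l* and *mt-Atp8*, and *mt-Nd3* had 26 counts in ft/ftMyD88-/- replicate 4.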
